A study of Mus musculus with 3 samples.

Results

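Retinoic acid is made from vitamin A inside the testis, sensed by germ cells and somatic cells, and broken down there again. The 9 genes described here cover that route: Stra6, Rdh10, Aldh1a1 and Aldh1a2 for delivery and synthesis, Crabp1, Rara and Rarg for transport and sensing, Stra8 as a response gene, and Cyp26b1 for breakdown. They were chosen by symbol from the gene lists of the deposited files, and all 9 were found among the 32285 genes listed.

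The data are single-cell RNA counts of adult mouse testis, made with the 10x Genomics 3′ assay, which tags the 3′ end of each captured messenger RNA so that copies can be counted once, as unique molecular identifiers (UMIs), for every barcoded droplet. There were 2 libraries of wildtype mice, each from 1 animal, called here wildtype 1 and wildtype 2, and 1 library in which 2 Tex10 conditional knockout mice were pooled. All animals carried the strain label C57BL/6N. Which Cre drove the deletion, and which exons it removed, is not given in the labels, and the pooled animals count as 1 sample, so no test between genotypes could be made and no p-value is given.

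As background, retinol reaches cells bound to plasma protein, can enter through a membrane receptor, and is oxidised first to retinal by retinol dehydrogenases and then to retinoic acid by retinaldehyde dehydrogenases. Retinoic acid binds nuclear receptors of the RAR family, which act on DNA as partners of RXR receptors, and CYP26 enzymes inactivate it. In the testis it is known to drive spermatogonial differentiation and entry into meiosis, with Stra8 as its best known germ cell target.

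The windows of 250 bases before the RefSeq gene start (build GRCm38.p6) are shown for Stra8 and Crabp1, whose levels define the germ cell pattern below, and for Cyp26b1, the main somatic breakdown gene here. Each is written 5′ to 3′ on the gene's own strand, and capitals mark AGGTCA, the core half-site that retinoic acid receptors are known to read, searched on both strands.
Stra8, chr6:34920698-34920947, plus strand: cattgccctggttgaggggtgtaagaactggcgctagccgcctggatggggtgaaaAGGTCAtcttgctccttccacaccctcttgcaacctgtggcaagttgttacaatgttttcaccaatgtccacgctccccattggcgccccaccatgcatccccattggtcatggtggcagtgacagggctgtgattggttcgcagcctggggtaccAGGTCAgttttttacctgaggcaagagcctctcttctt
Crabp1, chr9:54764498-54764747, plus strand: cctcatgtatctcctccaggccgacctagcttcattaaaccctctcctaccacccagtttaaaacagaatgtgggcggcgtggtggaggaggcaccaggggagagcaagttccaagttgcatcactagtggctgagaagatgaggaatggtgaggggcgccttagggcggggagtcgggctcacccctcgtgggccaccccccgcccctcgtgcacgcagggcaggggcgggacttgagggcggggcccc
Cyp26b1, chr6:84593811-84594060, minus strand: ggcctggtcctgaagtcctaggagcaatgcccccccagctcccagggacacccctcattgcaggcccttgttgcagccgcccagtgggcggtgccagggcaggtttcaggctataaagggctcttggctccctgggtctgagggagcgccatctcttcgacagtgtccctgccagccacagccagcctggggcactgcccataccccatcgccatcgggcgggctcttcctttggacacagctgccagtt

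The Stra8 window held AGGTCA at 194 and at 38 bases before the start, both on the gene's strand. Windows were found for 8 of the 9 genes, 16 in all because several genes have more than 1 start, and 2 of the 16 held the motif. The other was a Rarg window on chr15, with AGGTCA 225 bases before its start. Over all 32851 promoter windows of this length, 14% held AGGTCA. No window of the 9 genes held the motif as a direct repeat with 1, 2 or 5 bases between its copies, written AGGTCANAGGTCA, AGGTCANNAGGTCA and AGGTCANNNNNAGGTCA. Such repeats were in 0.0335%, 0.00913% and 0.00913% of all windows. These matches describe letters in a window and are not measured binding sites. The Stra8 window lies inside the GENCODE gene position given below for Stra8, and the Cyp26b1 window overlaps that of Cyp26b1. Distances before the start therefore depend on the RefSeq start used.

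The libraries held 9967, 10153 and 12918 barcodes and 93418341, 96001773 and 147783171 UMIs in wildtype 1, wildtype 2 and the knockout. Any 2 libraries shared 27 to 30 barcodes. Cells were grouped by clustering without the 9 genes and without a wider list of retinoid genes, and classes were named from marker genes, so each class name below stands for marker-defined cells (spermatogonia-like and so on). Clusters of barcodes with few UMIs held 55.0%, 39.9% and 64.5% of the kept barcodes of the 3 libraries and entered no class, except where named. Tex10, the targeted gene, was at 44.2, 40.8 and 35.7 CPM (UMIs of the gene scaled to 1000000 UMIs) over all barcodes, and at 143, 123 and 130.5 CPM in spermatogonia of wildtype 1, wildtype 2 and the knockout. In every later germ cell class Tex10 was lower in the knockout than in either wildtype library. It was at 154, 147.5 and 138.7 CPM in early spermatocytes and 27.9, 25.3 and 20.05 CPM in round spermatids. In myoid cells the knockout lay between the wildtype libraries, at 25.5, 17.85 and 23.1 CPM. The deleted exons are not given, so this 3′ signal does not check the label.

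There were 6 germ cell classes. Spermatogonia, led by Ptma and Uchl1, had 226, 312 and 244 cells, and early spermatocytes, led by Sycp1 and Sycp3 or by Stra8, had 409, 486 and 508. A class of 342, 439 and 370 cells led by Piwil1, which is a marker of later spermatocytes although its best overall match was to early ones, was given no stage and is called Piwil1-led spermatocytes. Late spermatocytes, round spermatids and elongating spermatids followed. The somatic classes were small. Peritubular myoid cells, the contractile cells around the tubule (led by Acta2 and Tpm2), had 107, 113 and 113 cells. Sertoli cells (led by Clu and Ctsl) had 22, 14 and 51, Leydig cells (led by Cyp17a1) 25, 26 and 49, and interstitial stromal cells (led by Dcn) 42, 52 and 50. The stromal name was lost with finer clusters, and with a stricter cell filter no Sertoli, Leydig or stromal class could be named. A class was compared between genotypes only with at least 50 cells in every library, which the 6 germ cell classes and the myoid cells reached.

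The highest classes of the 9 genes differed, and Rarg was scarce in every class. Several of these highest classes changed with the processing, as given at the end. Stra8 was highest in early spermatocytes and Crabp1 in spermatogonia, Aldh1a2 was highest in spermatocytes, Rdh10 in spermatids, Aldh1a1 in Leydig cells, Cyp26b1 in peritubular myoid cells, and Rara and Stra6 in Sertoli cells. Values in CPM are UMIs of the gene scaled to 1000000 UMIs of the class in that library, and intervals are exact 95% Poisson intervals that cover counting error only. Levels are compared between classes for 1 gene at a time, and not between genes. Gene positions are given on build GRCm38. Aldh1a1 overlaps C730002L08Rik and Gm6684 and Aldh1a2 overlaps Gm48124, all on the other strand, and Rara overlaps Gm22061 on its own strand, so reads of these pairs may not be told apart.

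**Figure D1:**
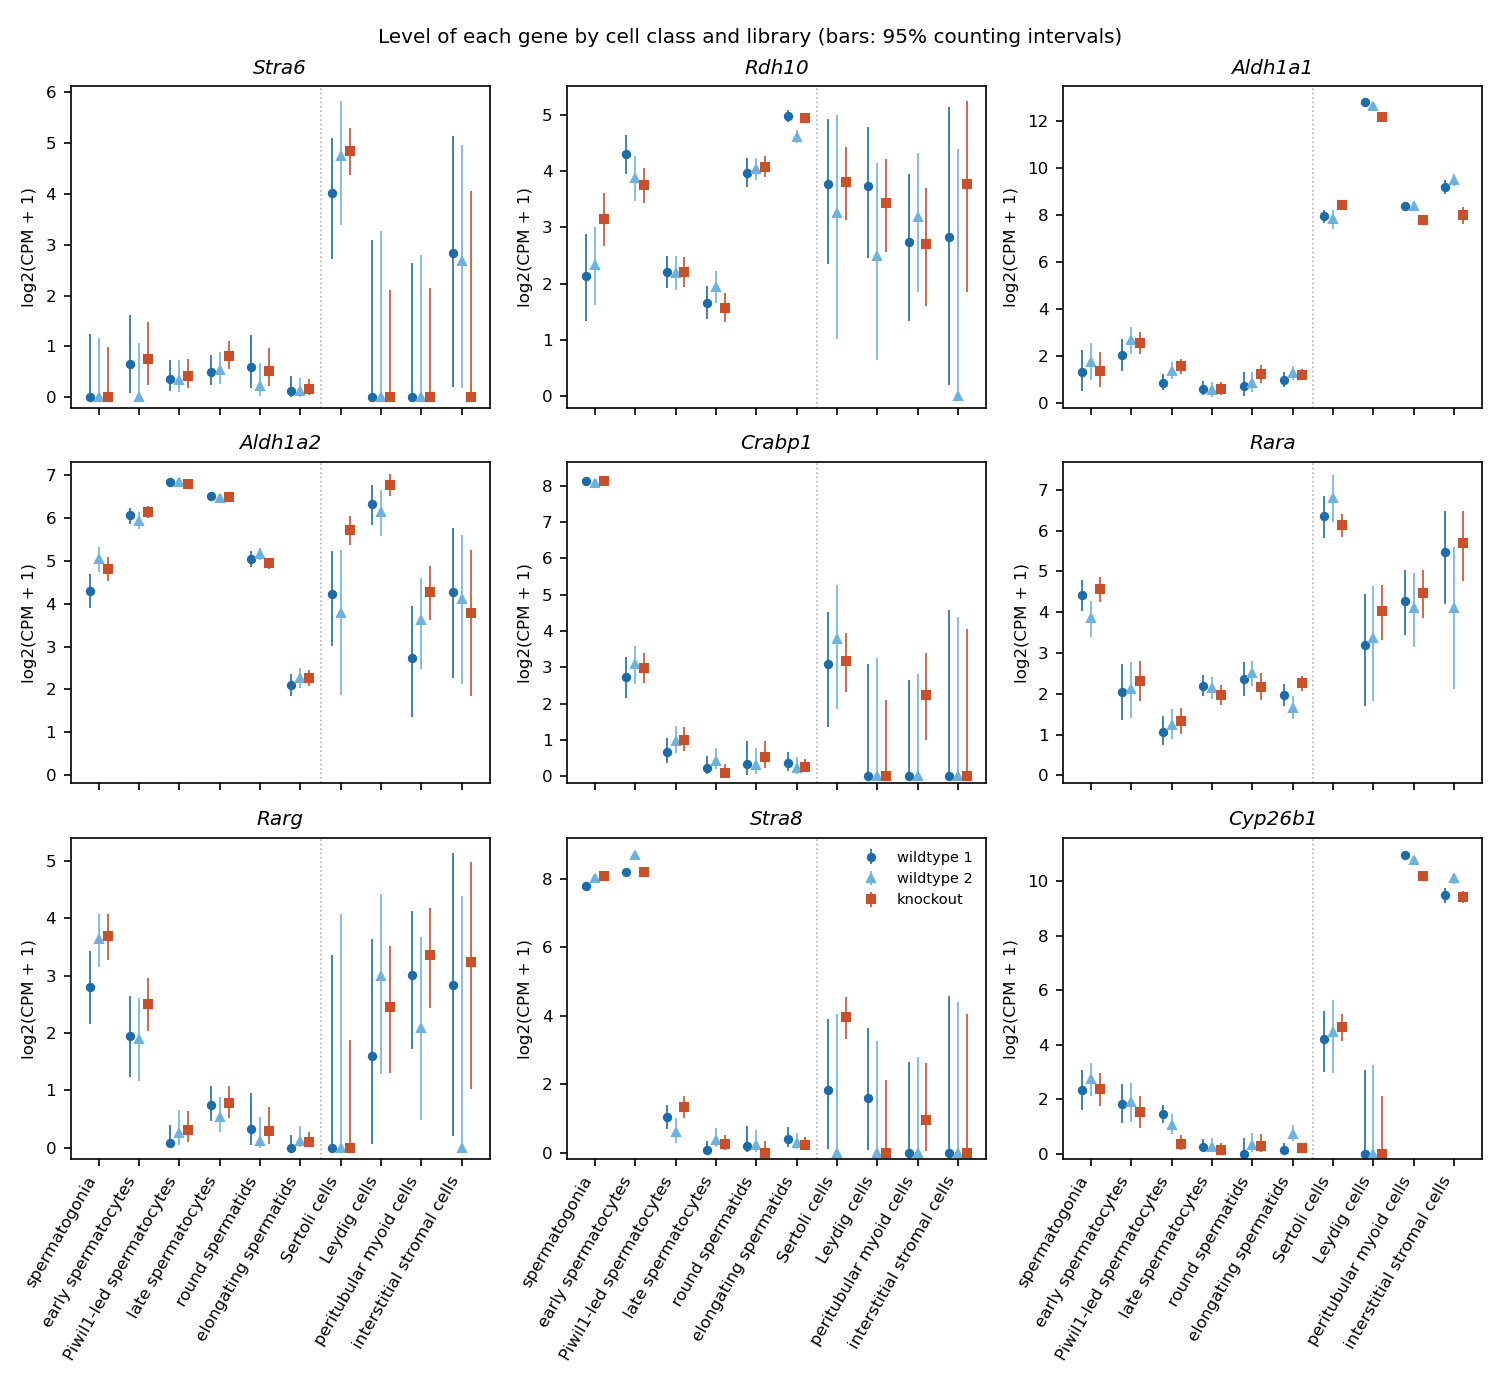
Level of each of the 9 genes as log2(CPM + 1) in 10 cell classes, with 1 point per library and 95% counting intervals; the dotted line parts germ cell from somatic classes. Aldh1a1 reaches 4636 to 7280 CPM in Leydig cells and Cyp26b1 1180 to 2007 CPM in peritubular myoid cells, while Stra8 and Crabp1 are high at the left of the germ cell classes.

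Stra6 (ENSMUSG00000032327, chr9:58063788-58153996, plus strand), the membrane receptor that takes retinol from its plasma carrier, was a Sertoli cell transcript at low level. It had 15.1 CPM (5.56 to 33.0) in wildtype 1, 25.6 CPM (9.38 to 55.6) in wildtype 2 and 27.6 CPM (19.6 to 37.9) in the knockout, from 6, 6 and 38 UMIs. The 3 intervals overlapped. No Stra6 UMI was found in spermatogonia, Leydig cells or myoid cells of any library, where 3 counts would be 2.70 to 6.98 CPM in the 2 somatic classes. In the remaining germ cell classes it stayed at or under 0.76 CPM. Barcodes with Sertoli markers but few UMIs, 784, 498 and 1063 of them, also held it, at 6.67, 7.63 and 9.85 CPM. Stra6 overlaps Ccdc33 on the other strand and Gm16131 on its own, so reads of Gm16131 may not be told apart from those of Stra6. The use of strand in counting is not given in the sources used here, so whether reads of Ccdc33 were kept apart is not known.

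Rdh10 (ENSMUSG00000025921, chr1:16105774-16133734, plus strand), the retinol dehydrogenase that makes retinal, was high in part of the spermatid clusters and again at the entry into meiosis. Elongating spermatids had 30.6 CPM (28.3 to 33.0) in wildtype 1, 23.5 CPM (21.6 to 25.5) in wildtype 2 and 29.9 CPM (28.2 to 31.6) in the knockout. The knockout lay between the wildtype libraries. Round spermatids held 14.7, 15.5 and 15.95 CPM, early spermatocytes 18.8, 13.8 and 12.5 CPM, and late spermatocytes only 2.17, 2.84 and 1.98 CPM. Spermatogonia had 3.38, 4.01 and 7.91 CPM, from 9, 12 and 30 UMIs.

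The spermatid signal differed between clusters. The elongating cluster led by Fam71b and Cst13 held 97.6, 84.4 and 85.1 CPM of Rdh10, from 427, 289 and 889 UMIs, and the cluster led by Prss52 held 32.1, 33.6 and 26.8 CPM. The elongating cluster led by Tex37 held 15.02, 14.2 and 11.8 CPM, and the round spermatid cluster led by 1700001P01Rik 19.6, 20.2 and 23.3 CPM. Elongating clusters led by Ttc24 and by Spem2 held at most 3.05 CPM in every library. Among the germ cell clusters that were given a class, the Fam71b-led one was the highest in all 3 libraries. A cluster of barcodes with few UMIs led by Gm8251, in no class, held 78.8, 99.0 and 83.2 CPM. Early spermatocytes were split too: the Stra8-led cluster held 34.8, 25.01 and 22.2 CPM of Rdh10, and the Rad51ap2-led cluster 11.0, 7.16 and 8.67 CPM. Between these peaks Rdh10 was low, at 0.489 to 5.94 CPM in the Piwil1-led and late spermatocyte clusters.

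**Figure D2:**
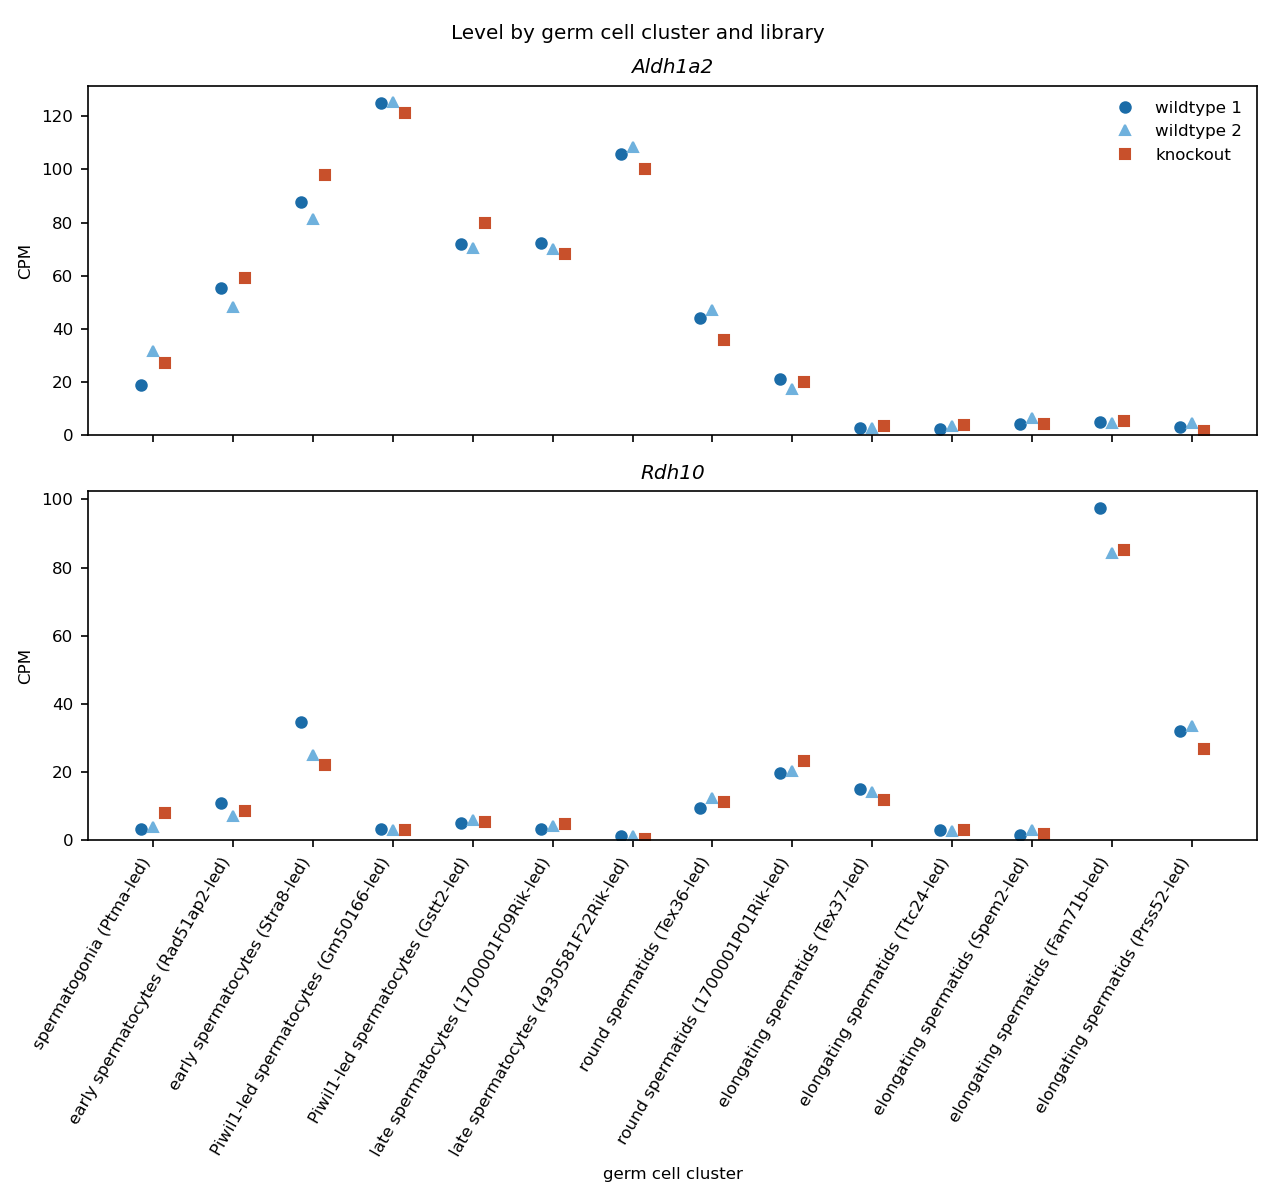
Aldh1a2 and Rdh10 in CPM in 14 germ cell clusters, ordered by class, with 1 point per library. Aldh1a2 is highest in the Gm50166-led cluster of Piwil1-led spermatocytes (121 to 125 CPM), where Rdh10 is at 2.91 to 3.24 CPM, and Rdh10 is highest in the Fam71b-led spermatid cluster (84.4 to 97.6 CPM), where Aldh1a2 is at 4.38 to 5.17 CPM.

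Aldh1a2 (ENSMUSG00000013584, chr9:71215789-71296243, plus strand), a retinaldehyde dehydrogenase that makes retinoic acid, was highest in spermatocytes. Leydig cells, given below, lay within the range of the spermatocyte classes. Piwil1-led spermatocytes had 114 CPM (109 to 119) in wildtype 1, 113 CPM (108 to 119) in wildtype 2 and 111 CPM (107 to 116) in the knockout. The 3 libraries differed by less than their counting intervals. Among germ cells, late spermatocytes followed with 90.1, 87.4 and 89.3 CPM and early spermatocytes with 65.9, 60.6 and 70.1 CPM. Round spermatids had 32.1, 34.9 and 29.8 CPM, spermatogonia 18.8, 31.8 and 27.2 CPM, and elongating spermatids 3.30, 3.81 and 3.84 CPM. From Piwil1-led through late and early spermatocytes to round spermatids, every step down was larger than the spread of the 3 libraries, whereas round spermatids and spermatogonia overlapped. The first of these steps depended on the clustering. The wildtype mean of Piwil1-led spermatocytes was 94.8 CPM with the 9 genes kept in the clustering and 93.1 CPM with no doublets left out, and late spermatocytes were then the highest class.

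Thinning each cell to 2000 UMIs left 16.7%, 19.4% and 19.1% of Piwil1-led spermatocytes with an Aldh1a2 UMI, against 1.12%, 1.20% and 0.647% of elongating spermatids. Leydig cells also held Aldh1a2, at 79.7, 69.8 and 109 CPM, from 39, 30 and 121 UMIs. In Sertoli cells it stood at 17.7 and 12.8 CPM in the wildtype libraries and 51.6 CPM in the knockout, from 7, 3 and 71 UMIs. The summed level of the 14 early spermatocyte markers in the same Sertoli cells was 333, 141 and 524 CPM and that of the 14 late spermatocyte markers 1484, 908 and 1590 CPM, all of these markers being detected in wildtype 1 and the knockout, and Stra8 stood at 2.52, 0 and 14.5 CPM there. The part of germ cell RNA in the Sertoli value was not tested. In barcodes with Sertoli markers but few UMIs, Aldh1a2 stood at 30.7, 39.8 and 47.2 CPM, from 46, 47 and 158 UMIs.

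Aldh1a1 (ENSMUSG00000053279, chr19:20492715-20643465, plus strand), the other retinaldehyde dehydrogenase of the set, was a somatic gene. Leydig cells, the androgen-making cells between the tubules, had 7280 CPM (7043 to 7523) in wildtype 1, 6394 CPM (6157 to 6638) in wildtype 2 and 4636 CPM (4511 to 4765) in the knockout. Every Leydig cell used kept an Aldh1a1 UMI after thinning, 25, 25 and 48 cells. Stromal cells had 585, 731 and 254 CPM, myoid cells 334, 334 and 219.9 CPM and Sertoli cells 247, 226 and 342 CPM. Stromal cells came next after Leydig cells in both wildtype libraries and Sertoli cells in the knockout. In barcodes with Sertoli markers but few UMIs, Aldh1a1 was at 78.8, 82.2 and 62.1 CPM, the knockout being the lowest there. The germ cell classes held at most 5.40 CPM in any library. After thinning, 50%, 50% and 52.9% of Sertoli cells had an Aldh1a1 UMI, against 0%, 0.326% and 0.412% of spermatogonia.

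The 9 Leydig markers summed to 34340, 25027 and 29866 CPM in Leydig cells, to 5.05, 21.3 and 32.7 CPM in Sertoli cells and to 326, 299 and 182 CPM in myoid cells, with Insl3 and Hsd17b3 at 0 in both other classes of every library. In the knockout, Leydig and stromal cells were lower in Aldh1a1 than in either wildtype library, with log2 ratios of -0.65 and -0.46 in Leydig cells and -1.20 and -1.52 in stromal cells. Both classes have under 50 cells in at least 1 library, so these ratios were not entered in the comparison. Beside them, the summed Leydig markers of knockout Leydig cells lay between the wildtype libraries, while the 9 macrophage markers summed to 172, 2.33 and 456 CPM and the 8 endothelial markers to 14.3, 2.33 and 69.2 CPM in Leydig cells. In stromal cells the 8 stromal markers summed to 9356, 7881 and 11331 CPM and the 13 elongating spermatid markers to 19757, 97946 and 42142 CPM. Their part in the lower Aldh1a1 was not tested. Of the sequence words of 31 bases in the last 500 bases of Aldh1a1 transcripts, 11.9% also occur in Aldh1a7, so the split of reads between these 2 genes is uncertain; Aldh1a7 had 114, 158 and 176 CPM in Leydig cells.

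Crabp1 (ENSMUSG00000032291, chr9:54764748-54773110, plus strand), a cytoplasmic protein that binds retinoic acid, was a spermatogonial transcript. Spermatogonia had 282 CPM (262 to 303) in wildtype 1, 269.6 CPM (251 to 289) in wildtype 2 and 282 CPM (265 to 299) in the knockout, and the 3 counting intervals overlapped. Early spermatocytes held 5.68, 7.50 and 6.93 CPM, and later germ cells at most 1.02 CPM. No Crabp1 UMI was found in Leydig or stromal cells. After thinning, 34.2%, 37.1% and 32.1% of spermatogonia kept a Crabp1 UMI, with exact 95% binomial intervals that overlapped, against none of the 1513 and 1998 elongating spermatids of wildtype 1 and 2 and 0.108% of those of the knockout.

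Rara (ENSMUSG00000037992, chr11:98927818-98974942, plus strand), the retinoic acid receptor alpha, was highest in Sertoli cells and present in spermatogonia. Sertoli cells had 80.8 CPM (55.2 to 114) in wildtype 1, 111 CPM (72.4 to 162) in wildtype 2 and 69.1 CPM (55.9 to 84.4) in the knockout. These intervals overlapped. Barcodes with Sertoli markers but few UMIs held less, at 34.0, 17.0 and 21.8 CPM, and with clusters of few UMIs named too the wildtype mean of Sertoli cells went from 95.8 to 38.2 CPM. Stromal cells had 43.1, 16.2 and 50.8 CPM, spermatogonia 20.3, 13.4 and 22.7 CPM and myoid cells 18.4, 16.2 and 21.2 CPM, and these classes could not be put in order beyond their spread. From early spermatocytes on, germ cells held between 1.10 and 4.65 CPM.

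Rarg (ENSMUSG00000001288, chr15:102234938-102257517, minus strand), the retinoic acid receptor gamma, was scarce in every class. Spermatogonia had 6.00 CPM (3.43 to 9.75) in wildtype 1, 11.4 CPM (7.88 to 15.9) in wildtype 2 and 11.9 CPM (8.65 to 15.9) in the knockout. Early spermatocytes had 2.84, 2.70 and 4.68 CPM and Sertoli cells had no Rarg UMI in any library. Myoid cells, at 7.08, 3.25 and 9.24 CPM, overlapped with spermatogonia. Without wildtype 2, the highest named class of Rarg was the myoid cells.

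Stra8 (ENSMUSG00000029848, chr6:34920163-34939344, plus strand), which is needed for entry into meiosis and answers to retinoic acid, was high in both early germ cell classes. Early spermatocytes had 293 CPM (276 to 312) in wildtype 1, 411 CPM (390 to 434) in wildtype 2 and 293 CPM (279 to 307) in the knockout, and spermatogonia 219.5, 261 and 268 CPM. The wildtype libraries differed from each other more in early spermatocytes than wildtype 1 differed from the knockout. The early spermatocyte level came from 1 of its clusters. The Stra8-led cluster held 891, 1088 and 1021 CPM, and the Rad51ap2-led cluster only 3.37, 11.5 and 7.95 CPM. With a stricter cell filter spermatogonia held 356, 368 and 474 CPM and early spermatocytes 10.8, 3.68 and 12.7 CPM. Which of these classes was higher thus depended on the filter. Class membership changed with it: knockout spermatogonia went from 244 to 262 cells, although the filter only removes cells. The part of class membership in the changed Stra8 levels was not tested. From Piwil1-led spermatocytes on, Stra8 stayed at or under 1.499 CPM. After thinning, 28.7%, 32.4% and 25.8% of early spermatocytes and 19.1%, 25.1% and 27.2% of spermatogonia kept a Stra8 UMI, against 0.132%, 0.05005% and 0% of elongating spermatids. The median depth was 11087.5, 8582 and 17190 UMIs per elongating spermatid and 6449, 5565 and 8859.5 per early spermatocyte.

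To see where along the entry into meiosis these genes lie, the 2185 spermatogonia and early spermatocytes were split into 10 subclusters, again without the 9 genes. The subclusters are ordered here by their level of Sycp1, a synaptonemal complex gene, which is an order of expression and not a measured time. Stra8 did not climb steadily along this order but dipped in the subclusters led by Ccnd1 and by Cenpa. It stood at 467, 336 and 218 CPM in the undifferentiated-like subcluster led by Sdc4, and at 361, 513 and 525 CPM in the first differentiating-like subcluster, led by Crabp1. In the next subcluster, led by Ccnd1, it was at 31.6, 29.1 and 22.9 CPM. It then stood at 216, 311 and 432 CPM in a subcluster led by Slc50a1 and at 37.0, 73.6 and 78.4 CPM in one led by Cenpa. The entering meiosis-like subcluster had 1580 CPM (1471 to 1695) in wildtype 1, 1668 CPM (1575 to 1765) in wildtype 2 and 1851 CPM (1757 to 1950) in the knockout. All of its 74, 120 and 85 cells held at least 1 Stra8 UMI.

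After this maximum Stra8 was at 375, 366 and 297 CPM in the Rbpms2-led leptotene to zygotene-like subcluster and at 28.4 CPM or less in the 3 subclusters after it. Both dips were present in all 3 libraries. The first was also seen with finer and coarser subclusters, the Cenpa-led one with finer subclusters, and with coarser ones no Cenpa-led subcluster was formed. In log2 units, the wildtype maximum was 2.03 ± 0.39 (SD, n = 2) above the undifferentiated-like level, and the knockout maximum 3.08 above its own. The undifferentiated-like subcluster has 24, 29 and 28 cells. With coarser subclusters the undifferentiated-like level was 133, 63.2 and 84.6 CPM, the knockout lying between the wildtype libraries. The maximum was then at 1566, 1668 and 1879 CPM, so the distance of the knockout from wildtype depended on the subclusters.

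**Figure D3:**
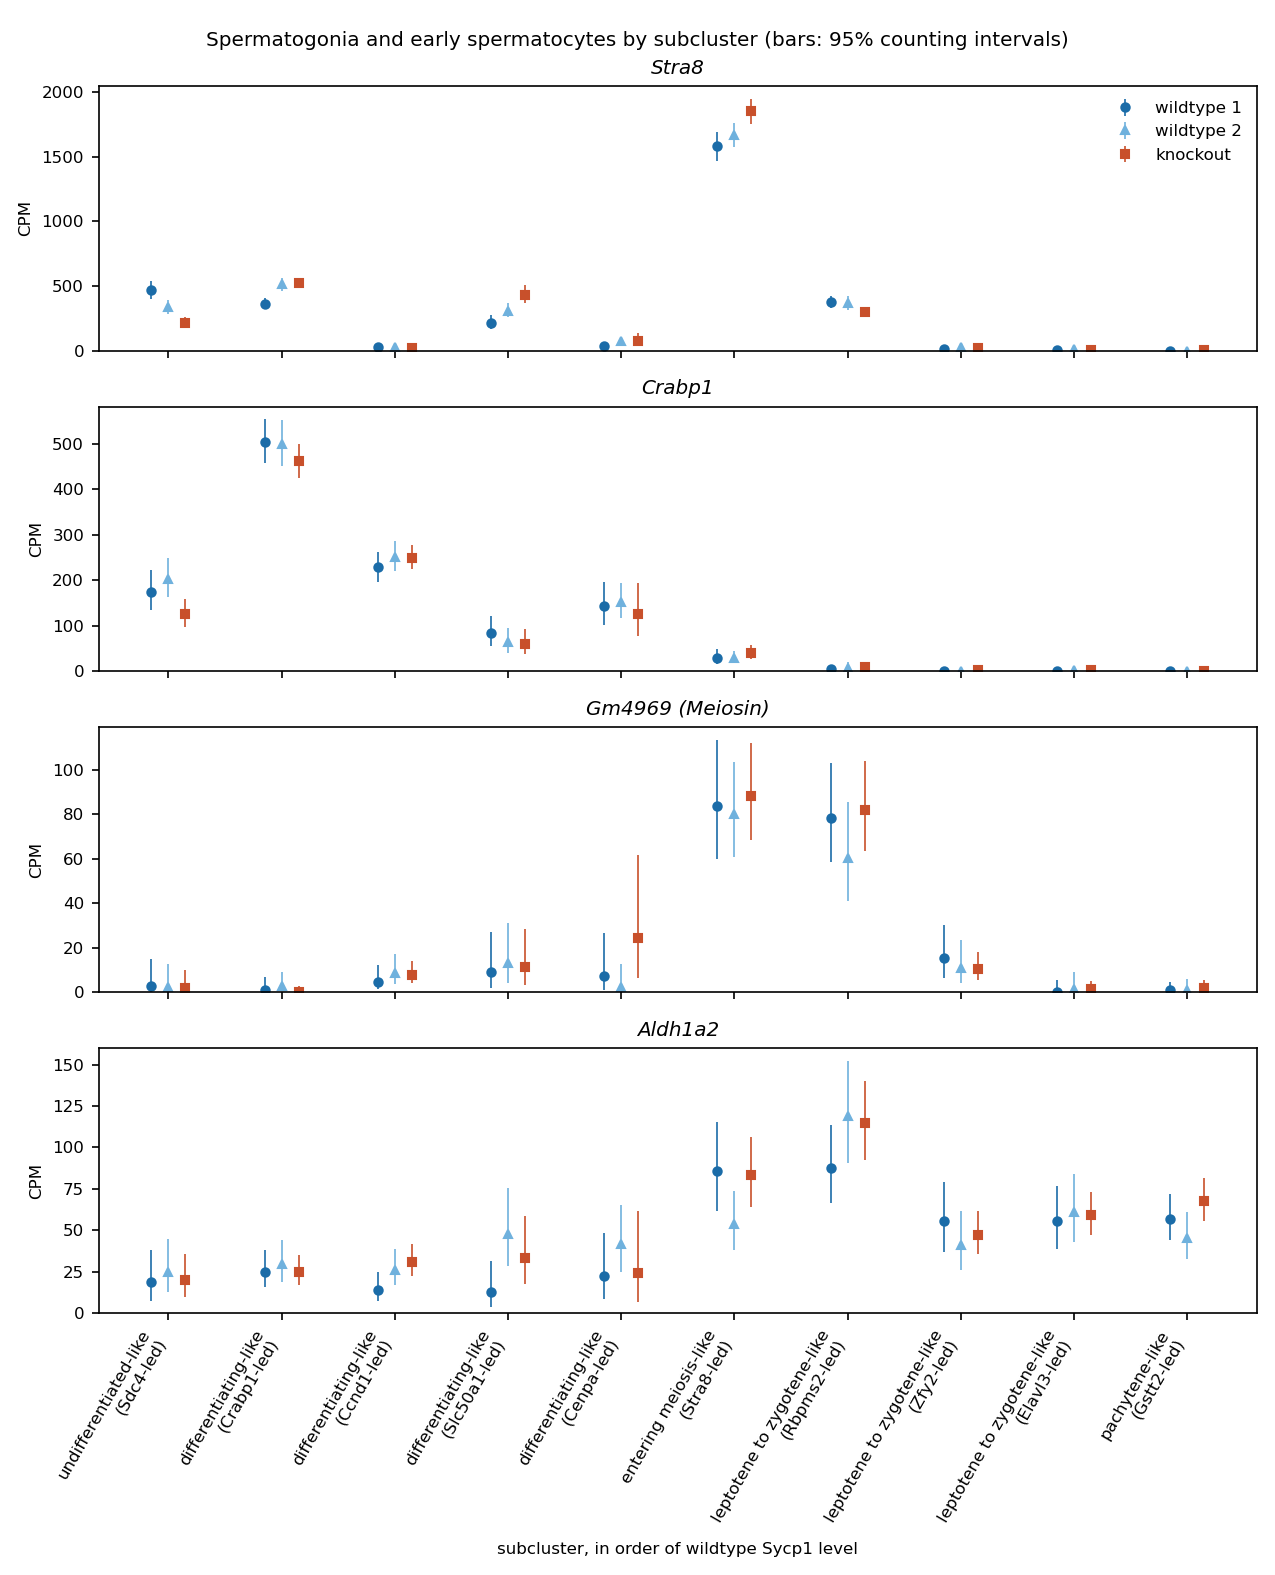
Stra8, Crabp1, Gm4969 (Meiosin) and Aldh1a2 in CPM in 10 subclusters of spermatogonia and early spermatocytes, in order of Sycp1, with 1 point per library and 95% counting intervals. Stra8 is at 22.9 to 31.6 CPM in the Ccnd1-led subcluster and reaches 1580 to 1851 CPM in the entering meiosis-like one, where Crabp1 is at 28.9 to 41.5 CPM.

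Crabp1 was highest before the Stra8 maximum. It was at 175, 203 and 126 CPM in the undifferentiated-like subcluster, at 503, 499 and 462 CPM in the Crabp1-led differentiating-like one and at 228, 251 and 249.7 CPM in the Ccnd1-led one, where Stra8 was low. It was at 83.4, 63.7 and 61.3 CPM in the Slc50a1-led subcluster and at 144, 152 and 127 CPM in the Cenpa-led one, the reverse of the order of Stra8 in these subclusters. It then stood at 30.5, 28.9 and 41.5 CPM at the Stra8 maximum and at 9.75 CPM or less beyond it. In the subcluster where both were high, 15 of 60, 17 of 65 and 19 of 69 thinned cells held both transcripts. The most Stra8-rich subcluster held 3 of 74, 8 of 117 and 5 of 85 such cells.

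Gm4969 (Meiosin), the partner of Stra8 at the onset of meiosis, had a single peak with the Stra8 maximum. It was at 83.5, 79.8 and 88.2 CPM in the entering meiosis-like subcluster and 78.4, 60.3 and 81.7 CPM in the Rbpms2-led one. In the undifferentiated-like and the Crabp1-led subclusters, where Stra8 was also high, it had at most 2.65 CPM. Rec8, a meiotic cohesin gene, stood at 74.2, 53.1 and 83.5 CPM in the Slc50a1-led subcluster and at 48.9, 64.7 and 35.0 CPM at the Stra8 maximum, and which of the 2 was higher differed between the wildtype libraries. Aldh1a2 stood at 12.4 to 47.8 CPM before the Stra8 maximum, at 85.5, 53.7 and 83.0 CPM there and at 87.6, 119 and 115 CPM in the Rbpms2-led subcluster right after it. Rdh10 had 42.8, 28.9 and 22.1 CPM at the Stra8 maximum, from 21, 21 and 17 UMIs, and 30.7, 19.5 and 23.2 CPM in the Rbpms2-led subcluster.

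The undifferentiated-like subcluster was not uniform. A Stra8 UMI was present in 9 of 24 cells of wildtype 1, 14 of 29 of wildtype 2 and 8 of 28 of the knockout, with medians of 19, 7.5 and 14.5 Stra8 UMIs in those cells. The same cells held Kit, the receptor gained by differentiating spermatogonia, at 55.7, 55.4 and 64.9 CPM, whereas the 15, 15 and 20 cells without Stra8 had 5.07, 0 and 8.86 CPM, from 1, 0 and 3 UMIs. Gfra1, a gene of undifferentiated spermatogonia, was at 5.57, 13.9 and 37.1 CPM in the cells with Stra8, from 1, 3 and 8 UMIs, and at 35.5, 26.4 and 47.2 CPM in those without, from 7, 6 and 16 UMIs. Zbtb16 was at 83.5, 73.9 and 116 CPM with Stra8 and 147, 137 and 204 CPM without. With coarser subclusters, the undifferentiated-like group had 15, 18 and 21 cells and Stra8 at 133, 63.2 and 84.6 CPM, below the 467, 336 and 218 CPM given above in each library.

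Cyp26b1 (ENSMUSG00000063415, chr6:84571414-84593908, minus strand), the enzyme that clears retinoic acid, was a gene of the tubule wall and stroma. Myoid cells had 2007 CPM (1904 to 2114) in wildtype 1, 1769 CPM (1665 to 1877) in wildtype 2 and 1180 CPM (1116 to 1246) in the knockout. The knockout lay below both wildtype libraries and outside their counting intervals. Stromal cells had 720.1, 1104 and 685 CPM, and Sertoli cells 17.7, 21.3 and 24.0 CPM. No Cyp26b1 UMI was found in Leydig cells, where 3 counts would be 6.13, 6.98 and 2.70 CPM, so the cells with the most Aldh1a1 had no detectable Cyp26b1. Germ cell classes held at most 5.69 CPM. After thinning, 93.3%, 91.3% and 87.5% of myoid cells held a Cyp26b1 UMI, against 0% of round spermatids in every library.

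The comparison of genotypes used a fixed size rule in place of a test. A gene passed where the log2 ratio of knockout to wildtype, with 1 CPM added, reached 1 in size with the same sign against each wildtype library, the smaller ratio was at least 2 times the ratio between the wildtype libraries, and the gene reached 20 CPM in 1 library. None of the 13 pairs of gene and class that could be judged passed, against 1.1% of all 43444 pairs of gene and class. By class, 0 of 4 of the genes passed in spermatogonia (0.351% of all genes tested), 0 of 2 in early spermatocytes (0.241%), 0 of 1 in Piwil1-led spermatocytes (0.497%), 0 of 1 in late spermatocytes (0.973%), 0 of 1 in round spermatids (1.19%), 0 of 1 in elongating spermatids (1.13%) and 0 of 3 in myoid cells (2.99%). At these shares a count of 0 among 13 is no result about the 9 genes. Stra6 and Rarg reached 20 CPM in no compared class and were not judged.

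**Figure D4:**
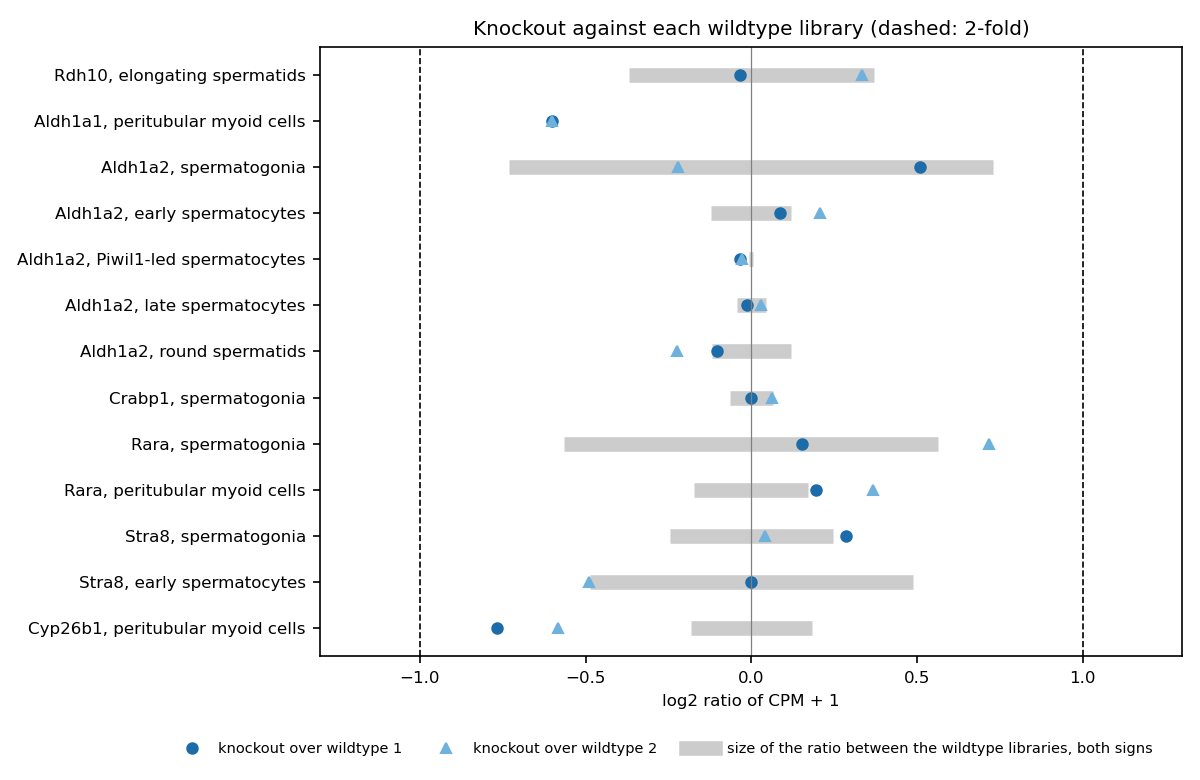
Log2 ratio of knockout to each wildtype library (CPM + 1) for the 13 pairs of gene and class with at least 20 CPM in 1 library; grey bars give the size of the ratio between the wildtype libraries and dashed lines mark 2-fold. No pair reaches 2-fold, and in myoid cells Cyp26b1 (-0.77 and -0.58) and Aldh1a1 (-0.60 and -0.60) lie below both wildtype libraries by more than those libraries differ.

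In spermatogonia, log2 ratios against wildtype 1 and 2 were 0.29 and 0.04 for Stra8, -0.0019 and 0.06 for Crabp1, 0.15 and 0.72 for Rara, and 0.51 and -0.22 for Aldh1a2. In early spermatocytes Stra8 had -0.0018 and -0.49, a mean of -0.25 that became 0.88 with the stricter cell filter, where those cells held little Stra8. By subcluster the sign differed. The Stra8 ratios were 0.23 and 0.15 in the entering meiosis-like subcluster, and -0.33 and -0.30 in the Rbpms2-led one. In spermatogonia the ratios of wildtype 2 to wildtype 1 were 0.25, -0.07, -0.56 and 0.73 for these 4 genes, and for each of them at least 1 knockout ratio was smaller in size than that. The median ratio over the 13 pairs was 0.03.

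In myoid cells the ratios were -0.77 and -0.58 for Cyp26b1 and -0.60 and -0.60 for Aldh1a1, against ratios of wildtype 2 to wildtype 1 of -0.18 and 0.00023. At a threshold of 1.5-fold, Aldh1a1 in myoid cells passed the rule, where 9.06% of all genes tested in that class did so, and 3.18% over all classes. With no CPM filter, Crabp1 in myoid cells passed (0, 0 and 3.70 CPM, from 4 UMIs in 1 cell), beside 1.58% of all pairs. The knockout myoid cells differed in other measures as well. Their 8 myoid markers summed to 19532, 18262 and 14627 CPM, elongating spermatid markers to 39625, 34175 and 52947 CPM, and endothelial markers to 63.7, 35.7 and 464 CPM in wildtype 1, wildtype 2 and the knockout. The part of these in the lower Cyp26b1 and Aldh1a1 was not tested. With the mean of each cell's own CPM the Cyp26b1 ratio was -0.42, and with a stricter cell filter the Aldh1a1 ratio was -0.26.

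The wider list held 44 further genes of the retinoid route. None of its 58 pairs of gene and class at 20 CPM passed the size rule in either direction, against 1.1% of all pairs. At this share a count of 0 is no result about the list. Its median ratio lay between -0.14 in myoid cells and 0.016 in elongating spermatids, beside medians over all genes of -0.03 and 0.10 in the same classes. Among genes that exchange retinol and retinal, Adh5 was highest in Leydig cells (569.9, 400.1 and 457 CPM), and Rdh11 in late spermatocytes (216, 232 and 236 CPM). Of the other retinal oxidation genes, Aldh1a3 reached 30.8, 43.3 and 59.2 CPM in stromal cells. Fabp5, a carrier that can bring retinoic acid to other nuclear receptors, led the carriers in Sertoli cells (414, 234 and 309.8 CPM), and Crabp2 stayed at or under 3.25 CPM in the named classes. The coactivator Ncoa2 led the receptor partners in Sertoli cells, at 310.5, 281 and 296 CPM. Cyp26a1 was at most 10.01 CPM in any class listed and Cyp26c1 had no UMI in any.

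The genes most like each of the 9 were found by Pearson correlation of log2(CPM + 1) over 30 pairs of library and class, among 13423 genes with at least 20 CPM in 1 pair. The pairs share libraries and depth, so the coefficients are descriptions. For Stra8 the nearest were Xlr4b, Gm15262 and Tktl1 (0.98 to 0.99), for Crabp1 Sox11, E2f2 and Galnt6 (0.95 to 0.97), and for Rara Hk2, Snx33 and Nr1d1 (0.93 to 0.95). Aldh1a1 was nearest to Phyh, Gstm1 and Gstm2 (0.99), Aldh1a2 to Dhrs7b, Bsg and Mrpl53 (0.90 to 0.92), and Cyp26b1 to Slc38a5, Pdlim3 and Csrp1 (0.97 to 0.98). Stra6 had Abcd2, Hsd17b1 and L1td1 (0.89 to 0.90). Rdh10 had no close match, with Gm34549, 1700029M03Rik and 4930555O08Rik at 0.72 to 0.75, and Rarg was below 20 CPM throughout.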

How the data were processed

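The unit of the deposited files is whole UMI counts per gene and barcode, not normalized. Per the submitters' processing notes, Cell Ranger 4.0.0, Seurat 4.0.5 and build mm10 were used; the annotation and the use of strand are not given in the sources used here. The 9 genes, the wider list, the markers and the size rule were chosen with earlier results of these data known.

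Barcodes with at least 1000 UMIs, 500 genes and at most 10% mitochondrial UMIs passed: 8134, 8337 and 12014 in wildtype 1, wildtype 2 and the knockout. Clustering (scanpy 1.11.5, leidenalg 0.10.2) used 2000 variable genes without the 9 genes and the list, 30 components, 15 neighbours and resolution 1. The top 8% of Scrublet scores were left out as doublets, since the automatic threshold marked almost none. That step removed 26 of 28, 1 of 30 and 0 of 63 barcodes rich in Leydig markers. After seeing this, somatic classes were taken from a clustering with no doublets left out, and 2 barcodes are in both a germ cell and a somatic class. Clusters with a median UMI count under 3 times the library minimum were kept out of classes, a limit also chosen after seeing the data. Where classes differ from those of the study, the rebuilt names may be the reason.

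UMIs were summed per library and class. Shares of cells used cells thinned to 2000 UMIs. The size rule was run on simulated counts with Poisson error only, without variation between animals, and with changes larger than its threshold. That run cannot show how the rule performs on real libraries. Named were the 9 genes, the 3 genes most correlated with each, and list genes that passed the size rule or were highest in their role group; Rdh11, Aldh1a3, Crabp2, Gm4969 and Cyp26c1 were named beside these after their values were seen. The highest gene of 1 role group is not reported here. The wildtype libraries are separate mice, so their difference is the only spread between samples. Promoter windows are from RefSeq and gene positions from GENCODE on GRCm38; 32235 of 32285 gene IDs matched.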

Additional observations from a re-analysis of the deposited data

Results flagged for a closer look

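Clusters of barcodes with few UMIs entered no class and no comparison, but some held Aldh1a2 or Rdh10 at a sizeable share of the level in their highest class, in every library. Aldh1a2 averaged 64.2 CPM over the wildtype libraries in cluster 0, led by Mesp1, and 79.56 CPM in cluster 22, led by Cks2. Rdh10 averaged 30.56 CPM in cluster 3, led by Gm48051, 42.98 CPM in cluster 6, led by Tsga8, and 88.93 CPM in cluster 12, led by Gm8251. These clusters also hold some deep barcodes. Cluster 0 had a median of 1683.5 and a maximum of 236692 UMIs per barcode, and cluster 22 a median of 2319 and a maximum of 216573. Summed counts weigh deep barcodes more, and their part in these levels was not tested. Other genes were also detected in such clusters. Cluster 25, led by Uchl1, held Stra8 at 58.45, 199 and 67.1 CPM and Crabp1 at 105, 188 and 187 CPM in wildtype 1, wildtype 2 and the knockout.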

How the results depend on the processing

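Leaving the settings one at a time (clustering genes, low-UMI clusters, cell filter, doublets, resolution, per-cell means, scaling, added CPM, and either wildtype library) kept the number of the 9 genes past the size rule at 0. With no CPM filter it was 1 (Crabp1 in myoid cells, 0, 0 and 3.70 CPM), with 4 list genes and 2425 pairs of gene and class. At 1.5-fold it was 1 (Aldh1a1 in myoid cells), with 1 list gene, Ncoa3 in myoid cells, and 1383 pairs. Over all genes 477 pairs passed. Without one wildtype library 935 to 952 passed, as the condition on the wildtype pair then cannot apply. The highest class was as reported for 4 of the 9 genes under the stricter cell filter, where no Sertoli, Leydig or stromal class could be named: Stra8 and Rara were then highest in spermatogonia, Rdh10 in round spermatids, and Aldh1a1 and Stra6 in myoid cells. It was as reported for 6 to 9 otherwise. With the 9 genes kept in the clustering Aldh1a2 was highest in late spermatocytes and Rara and Stra6 in stromal cells, with no doublets left out Aldh1a2 in late spermatocytes, at resolution 2 Rdh10 in round spermatids, with per-cell means Rdh10 in early spermatocytes, and with the doublet step applied to the somatic classes, an alternative chosen after seeing the data, Rara and Stra6 in stromal cells. The cause was not tested. The wildtype Stra8 peak over the undifferentiated-like level (log2 2.03) was 4.12 with coarser subclusters and 1.76 to 2.31 without one wildtype library. The mean wildtype share of early spermatocytes with a Stra8 UMI, 30.55%, was 36.8% thinned to 4000 UMIs and 39.1% without thinning. Of 235 other alternative values of single genes, 46 moved by more than the wildtype spread. Of the 143 knockout ratios among them 13 changed sign, 8 by more than that spread, though none of these ratios had passed the size rule. Small somatic classes and counts under 20 UMIs limit the depth of Stra6, Rarg and the Sertoli values. No paired analysis was possible because the knockout has 1 library.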
